A study of Mus musculus with 48 samples.

Results

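The Ly6 surface antigens examined here were Ly6i, Ly6a, Ly6c1, Ly6d, Ly6e and Ly6f, and every probe set annotated to any of these 6 genes was taken. Under the symbols of the annotation used, 4 of the 6 genes had a probe set. Of these, 3, Ly6i, Ly6d and Ly6f, had a probe set of their own, as did 12393 genes on the array in all. Ly6c1 was measured only through a probe set that the annotation gives to both Ly6c1 and Ly6c2, so the transcripts of these neighbours could not be told apart. Ly6a and Ly6e were not analysed here. The family was chosen by the difference in Ly6i signal between mainstream smoke and air, which was among the highest on the array, so every comparison that involves mainstream smoke is given for these genes as a description, with no test.

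RNA from whole lung was hybridized to 1 Affymetrix array per animal for 48 male C57BL/6 mice in 6 groups of 8. The groups were diet-induced obese (DIO) and regular weight (RW) mice that inhaled mainstream cigarette smoke (MS), DIO and RW mice that inhaled sidestream smoke (SS), and DIO and RW mice that breathed filtered air as sham controls (SC). High-fat feeding of the DIO mice (60 kcal% fat) began at 6 weeks of age and lasted 9 weeks up to the study, while RW chow held about 5 kcal% fat. Mice of all groups were bought at 13 weeks, were 15 weeks old at the start and shared the nose-only procedure, with 8 daily sessions of 5 hours spread over 2 weeks and necropsy on the day after. Mainstream smoke is what a smoker draws through the cigarette, and sidestream smoke is what the burning tip gives off. The growth protocol also names an LPS study of 4 days, and how the lungs measured here relate to it is not stated. Arrays are named by diet, exposure and animal number, for example DIO-MS-1. The labels call the 8 animals of a group biological replicates. On 4 arrays, numbers 7 and 8 of RW-MS and of RW-SS, another label field repeats the number of an earlier animal, and the titles were followed.

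Proteins of the Ly6 family are small molecules that share a cysteine-rich domain with the urokinase receptor and are mostly tethered to the cell surface by a lipid anchor. In mice their genes lie in a cluster of near copies, and several are used as markers of blood cell types: Ly6C, the product of Ly6c1 and Ly6c2, marks inflammatory monocytes and is also found on endothelial cells and some lymphocytes, and Ly6D is found on B cells, on some thymocytes and in squamous epithelium. Several members, Ly6C and Ly6I among them, are known to be induced by interferons, which signal through Jak kinases and Stat factors to genes that carry matching sites.

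In the RefSeq annotation of assembly GRCm38.p6 the members lie along chromosome 15: Ly6d at chr15:74762056-74763567, Ly6i at chr15:74979534-74983434, Ly6c1 at chr15:75044018-75048920 and Ly6f at chr15:75268372-75272237, with Ly6c2 at chr15:75108161-75112066 between the last pair. The promoter table from RefSeq held 2 of the 6 members, Ly6c1 and Ly6f. Their upstream windows are shown with that of Ly6c2, which shares the probe set of Ly6c1, because they show how alike these neighbours are and whether they carry the letters of interferon response sites. Each line runs 5′ to 3′ and gives the 250 bases before the outermost transcription start in the table, with the motif TATAAA in capitals. The windows are chr15:75048838-75049087 on the minus strand for Ly6c1, chr15:75111972-75112221 on the minus strand for Ly6c2 and chr15:75268171-75268420 on the plus strand for Ly6f, and each reaches into the annotated span of its gene.
Ly6c1: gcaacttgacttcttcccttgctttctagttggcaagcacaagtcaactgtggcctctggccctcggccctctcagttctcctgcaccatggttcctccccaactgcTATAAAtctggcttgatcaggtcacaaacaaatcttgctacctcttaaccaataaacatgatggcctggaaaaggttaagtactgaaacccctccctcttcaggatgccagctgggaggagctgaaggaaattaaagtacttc
Ly6c2: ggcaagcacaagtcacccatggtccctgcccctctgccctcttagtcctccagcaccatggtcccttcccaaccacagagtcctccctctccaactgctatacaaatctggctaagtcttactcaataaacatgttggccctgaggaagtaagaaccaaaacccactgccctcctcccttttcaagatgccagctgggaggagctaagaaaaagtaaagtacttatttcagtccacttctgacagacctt
Ly6f: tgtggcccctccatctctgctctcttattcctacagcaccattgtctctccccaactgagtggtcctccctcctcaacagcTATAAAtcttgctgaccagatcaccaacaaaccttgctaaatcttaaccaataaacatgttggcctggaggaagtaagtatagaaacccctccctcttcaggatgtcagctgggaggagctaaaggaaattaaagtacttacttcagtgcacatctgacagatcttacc
When aligned, the windows of Ly6c1 and Ly6f were identical at 174 of 197 aligned bases (88.3%), those of Ly6c2 and Ly6f at 183 of 223 (82.1%), and those of Ly6c1 and Ly6c2 at 170 of 210 (81%). The letters TATAAA, searched on both strands, stood at position -143 from the start in Ly6c1 and at -169 in Ly6f, and were not in the window of Ly6c2. Of 32851 windows of the same length in the table, 12.4% held them. The gamma interferon site TTCNNNGAA and the core of the interferon stimulated element (GAAA, any 2 bases, GAAA) were searched on both strands and were in none of the 3 windows, against 7.02% and 2.98% of all windows. No match says only that these letters are not in these 250 bases.

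The deposited values are log2 signals, on which a difference of 1 is a 2-fold change. A probe set was called when its Benjamini-Hochberg adjusted p in limma, over all 22626 probe sets that are no controls, was below 0.05. Signals lay between 2.50 and 15.3, and array medians lay between 7.82 and 7.94. The lung genes Sftpc and Sftpb (surfactant proteins), Ager (alveolar type 1 cells) and Scgb1a1 (club cells) were at or above the 98.5th percentile of their array on all 48 arrays. A set of 5 arrays, DIO-MS-1, DIO-MS-6, RW-SS-6, DIO-SC-3 and DIO-SC-7, stood apart, with mean correlations to the other arrays of 0.962 to 0.982, against 0.987 to 0.992 for the remaining 43. Counts and values that change most without these arrays are given both ways.

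Ly6i, an antigen of myeloid cells of the marrow, was high in every lung that received mainstream smoke and low in every other lung. Its signal lay between 10.52 and 12.55 (median 10.85) in DIO mice under mainstream smoke, and between 9.08 and 11.45 (median 10.68) in RW mice under mainstream smoke. It lay between 6.81 and 7.40 (median 7.24) in DIO mice and between 6.90 and 8.06 (median 7.24) in RW mice under sidestream smoke. In air it lay between 6.38 and 7.27 (median 6.87) in DIO mice and between 6.64 and 7.65 (median 7.07) in RW mice. The lowest array under mainstream smoke, RW-MS-5 at 9.08, was still above the highest array of the other 4 groups, RW-SS-8 at 8.06.

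**Figure D1:**
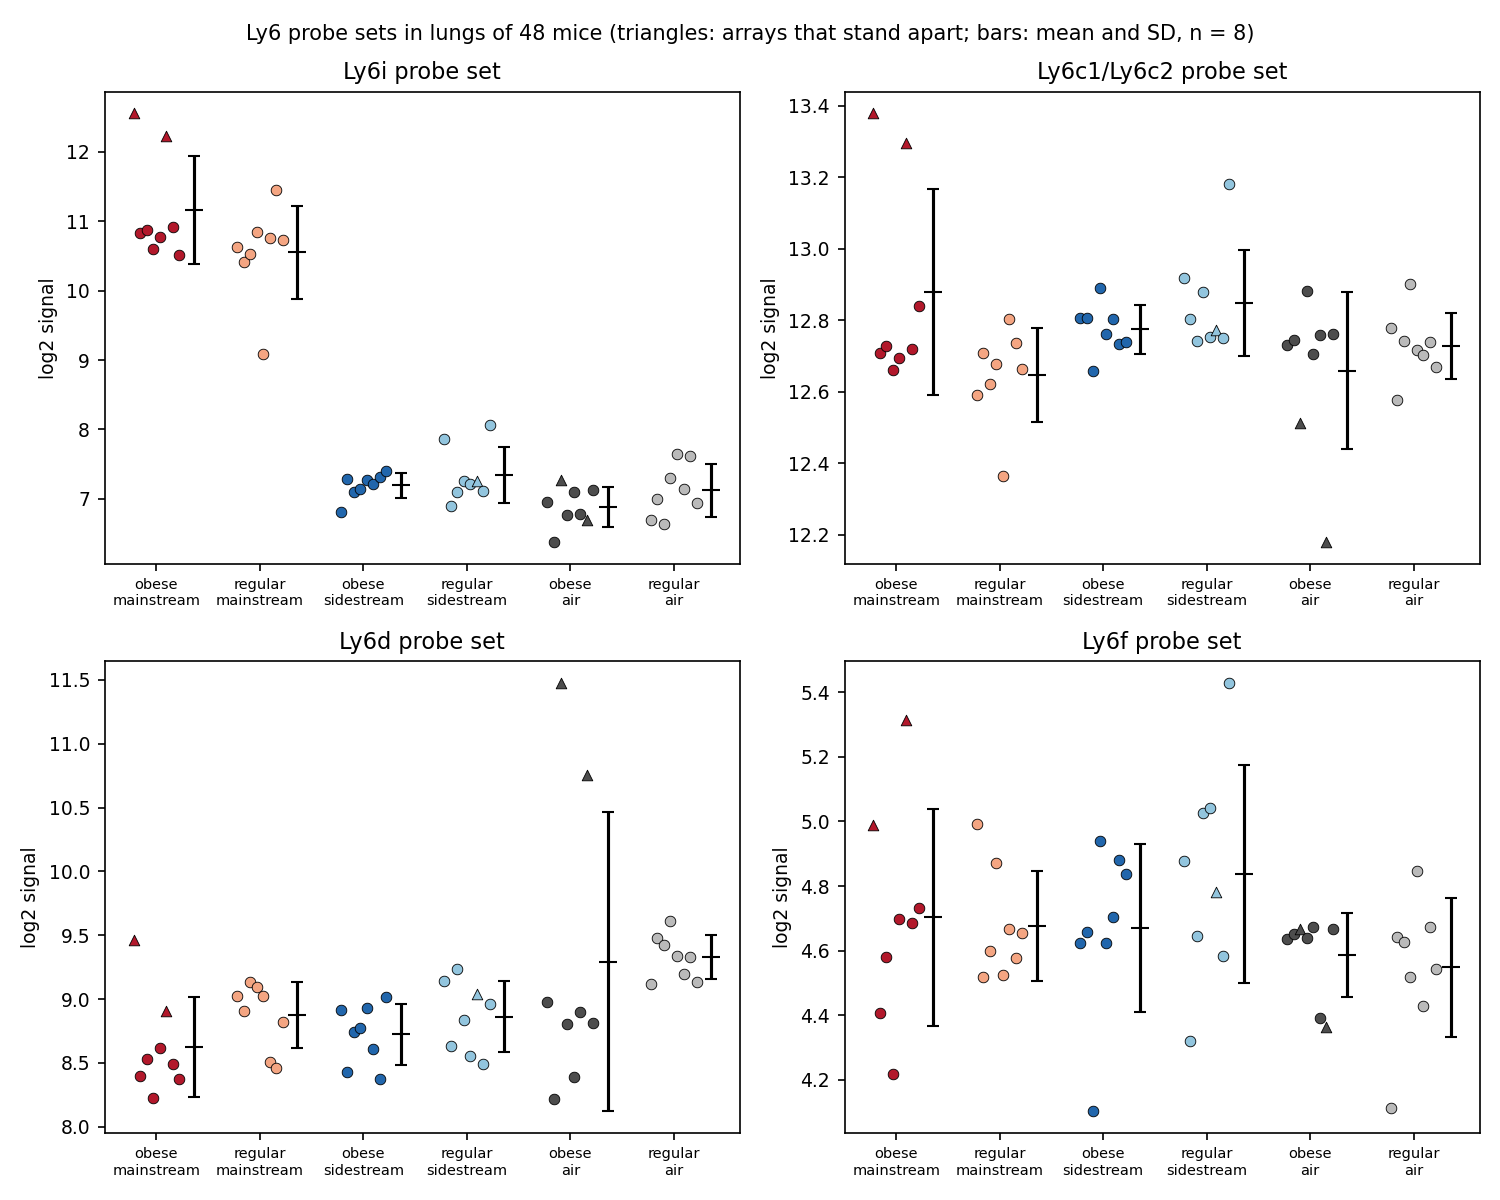
Log2 signal of the 4 Ly6 probe sets (y axes, a separate range in each panel) in each of the 6 groups (x axes), with 1 point per mouse, triangles for the 5 arrays that stand apart, and bars for the mean and SD (n = 8). Ly6i was at or above 9.08 in all 16 mainstream arrays and at or below 8.06 in every other array, and Ly6d was highest on DIO-SC-3 and DIO-SC-7.

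Against air, Ly6i was higher under mainstream smoke by 4.28 ± 0.24 (log2, SE), or 19.4-fold, in DIO mice and by 3.43 ± 0.24, or 10.8-fold, in RW mice. Among the 22626 probe sets these differences ranked 4 and 6 from the top. The mainstream and air groups did not overlap in either diet; of all probe sets, 2.47% in DIO mice and 2.32% in RW mice were higher with no overlap, and nothing is read from this because the response chose the family. Against sidestream smoke, Ly6i was higher under mainstream smoke by 3.97 (15.7-fold) in DIO mice and by 3.21 (9.24-fold) in RW mice, again with no overlap, as for 3.31% and 2.37% of all probe sets. In whole lung, more cells of a type and more RNA per cell cannot be told apart.

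Within the mainstream groups the Ly6i signal was not even. DIO-MS-1 at 12.55 and DIO-MS-6 at 12.23 stood above the other 6 DIO lungs, which lay between 10.52 and 10.91, while in RW lungs RW-MS-7 was highest at 11.45 and RW-MS-5 lowest at 9.08. With all arrays the DIO mean was 11.16 ± 0.78 and the RW mean 10.55 ± 0.67 under mainstream smoke (SD, n = 8 each), a difference of 0.61 ± 0.24 (SE). Without DIO-MS-1 and DIO-MS-6 the DIO mean was 10.75 ± 0.16 (SD, n = 6), and the difference was 0.20 ± 0.21 in the fit without the 5 arrays. Without the 5 arrays, Ly6i under mainstream smoke was 14.9-fold above air in DIO mice and 10.8-fold in RW mice.

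Sidestream smoke was followed by no called change of Ly6i in either diet. Under sidestream smoke Ly6i averaged 7.19 ± 0.18 in DIO mice, against 6.88 ± 0.29 in DIO mice in air (SD, n = 8 each), a difference of 0.31 (95% interval -0.17 to 0.79, adjusted p = 0.48, limma). In RW mice it averaged 7.35 ± 0.40 under sidestream smoke and 7.12 ± 0.38 in air, a difference of 0.22 (95% interval -0.26 to 0.70, adjusted p = 0.68, limma). The groups overlapped in both diets, and a fold change of up to 1.73 in DIO mice and 1.63 in RW mice lies within these intervals. The response to sidestream smoke in DIO mice minus that in RW mice was 0.09 (95% interval -0.59 to 0.77, adjusted p = 0.96). The air arrays serve as the control for both smokes, so the sidestream and mainstream differences share them.

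Without mainstream smoke, Ly6i was not called between the diets. DIO mice were 0.24 below RW mice in air (95% interval -0.72 to 0.24, adjusted p = 0.63, limma) and 0.15 below them under sidestream smoke (95% interval -0.63 to 0.33, adjusted p = 0.97). By mean the 6 groups ran in the order DIO-MS, RW-MS, RW-SS, DIO-SS, RW-SC and DIO-SC. The ranges of neighbours in this order overlapped, except between RW-MS and RW-SS.

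**Figure D2:**
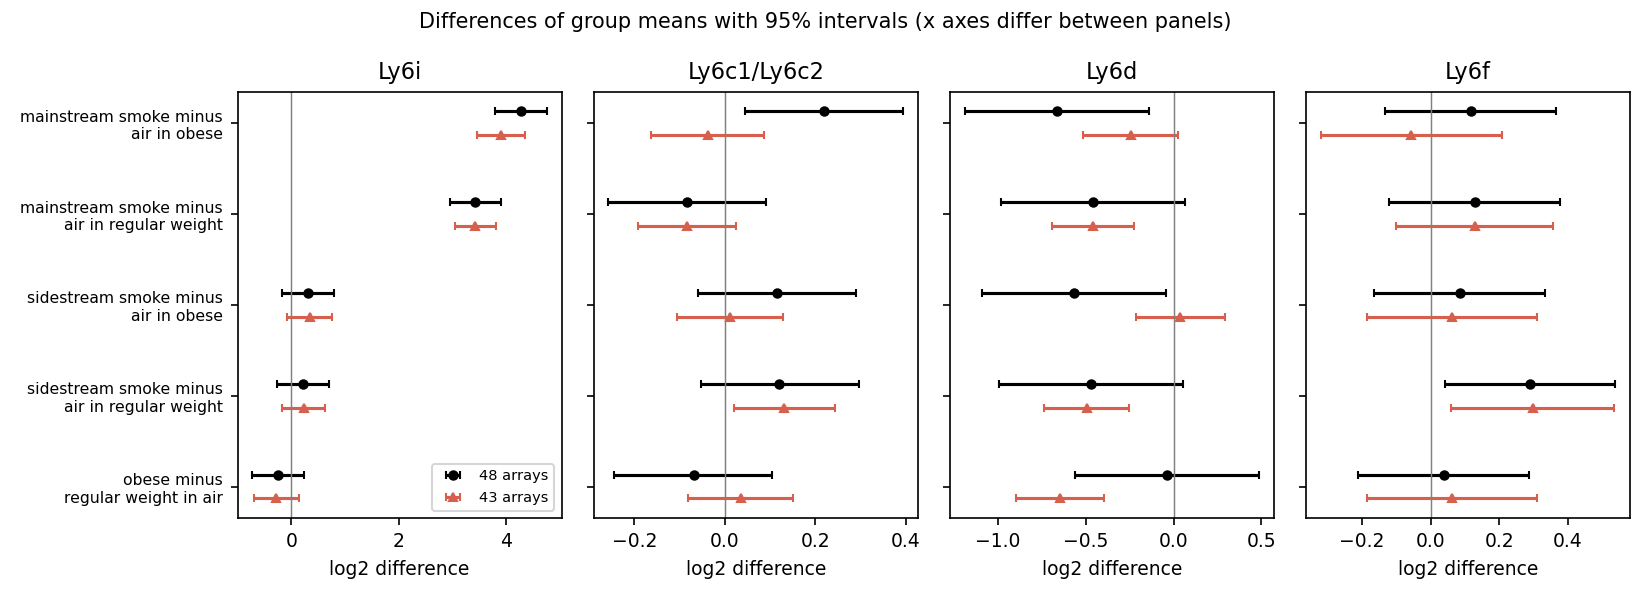
Log2 difference between group means (x axis, a separate range in each panel) for each Ly6 probe set in 5 comparisons (rows), with 95% intervals, for all 48 arrays (circles) and for the 43 arrays left without those that stand apart (triangles). Ly6i was 4.28 and 3.43 above air under mainstream smoke in DIO and RW mice, and the Ly6d difference between the diets in air was -0.04 with 48 arrays and -0.65 with 43.

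The Ly6c1/Ly6c2 probe set stands for Ly6C, an antigen of monocytes, endothelial cells and some lymphocytes, which cannot be told apart in whole lung. It was bright in all groups and differed little between them. Its signal lay between 12.66 and 13.38 (median 12.72) in DIO mice and between 12.36 and 12.80 (median 12.67) in RW mice under mainstream smoke. It lay between 12.66 and 12.89 (median 12.78) in DIO mice and between 12.74 and 13.18 (median 12.79) in RW mice under sidestream smoke, against 12.18 to 12.88 (median 12.74) in DIO mice and 12.58 to 12.90 (median 12.73) in RW mice in air. All 6 ranges overlapped; DIO-MS-1 at 13.38 and DIO-MS-6 at 13.30 were the highest arrays, RW-SS-8 at 13.18 came next, and DIO-SC-7 at 12.18 was the lowest.

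For Ly6c1/Ly6c2 the difference between mainstream smoke and air was 0.22 ± 0.09 (SE) in DIO mice with all arrays and -0.04 ± 0.06 without the 5. In RW mice it was -0.08 ± 0.09, and 7 of the 8 RW mainstream arrays lay below every RW sidestream array, with a difference of mainstream minus sidestream smoke of -0.20 ± 0.09. Under sidestream smoke it was 0.12 above air in DIO mice (95% interval -0.06 to 0.29, adjusted p = 0.46, limma) and 0.12 above air in RW mice (95% interval -0.05 to 0.30, adjusted p = 0.50). The intervals leave room for a sidestream change of at most 1.22-fold up in DIO mice and 1.23-fold up in RW mice. The difference between DIO and RW mice in air was -0.07 (95% interval -0.24 to 0.11, adjusted p = 0.72), and its sign turned, at 0.04, without the 5 arrays.

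Ly6d is an antigen of B cells, thymocytes and squamous epithelium. It was not called between DIO and RW lungs in air with all arrays, but was lower in DIO lungs without DIO-SC-3 and DIO-SC-7. With all arrays its signal in air lay between 8.22 and 11.48 (median 8.85) in DIO mice, against 9.12 to 9.61 (median 9.33) in RW mice. DIO-SC-3 at 11.48 and DIO-SC-7 at 10.75 lay above every RW array, and the other 6 DIO arrays, at 8.22 to 8.98, lay below every RW array. The mean was 9.29 ± 1.17 in DIO mice and 9.33 ± 0.17 in RW mice (SD, n = 8 each), and the difference of -0.04 ± 0.26 (SE) was not called (adjusted p = 0.96, limma). Without the 5 arrays the DIO mean was 8.68 ± 0.31 (SD, n = 6), the difference was -0.65 ± 0.13, or 1.57-fold lower, and the adjusted p was 0.00055 by limma. Leaving out DIO-SC-3 and DIO-SC-7 alone gave -0.65 ± 0.15 with an adjusted p of 0.0047. Both reduced sets were chosen with the data known. Without the 5 arrays the DIO and RW air groups did not overlap for Ly6d, as for 1.26% of all probe sets, lower in DIO mice. Nothing is read from this, because the DIO arrays above the RW range were among those left out.

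The arrays that carried high Ly6d also carried markers of other tissues. On DIO-SC-3 the mean signal of 9 squamous epithelium markers was 11.87, against 5.17 to 6.02 on the other 7 DIO air arrays and 5.03 to 5.6 in RW air arrays. On DIO-SC-7 the mean of 6 thymocyte markers was 10.90, and that of 12 T cell markers 10.63, against at most 6.69 and 7.35 on the 6 DIO air arrays that do not stand apart. In air, 1 of the 9 squamous markers was called, Krt5 (a basal keratin), 0.99 higher in DIO than in RW mice with all arrays (adjusted p = 0.037, limma), and 0.28 higher without the 5 (adjusted p = 0.30). Neither the 6 thymocyte nor the 12 T cell markers were called with all arrays (0 and 2 at an unadjusted p below 0.05, limma). Without the 5 arrays 6 of the 12 T cell markers were lower in DIO than in RW mice in air. Of all probe sets, 6.18% were called in air with all arrays, and 6.98% (4.29% lower) without the 5. The part of squamous epithelium and thymocytes in the Ly6d signal of DIO-SC-3 and DIO-SC-7 was not tested.

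In RW mice Ly6d was lower under sidestream smoke than in air by a similar amount in every fit given here. Ly6d was called there in 3 fits of fewer arrays, and not in the fit of all 48. It lay between 8.37 and 9.02 (median 8.76) in DIO mice and between 8.49 and 9.23 (median 8.90) in RW mice under sidestream smoke. In RW mice 6 of the 8 sidestream arrays lay below every air array. The difference from air in RW mice was -0.47 ± 0.26 (SE) and was not called with all 48 arrays (adjusted p = 0.36, limma). It was -0.49 ± 0.12, 1.41-fold lower, without the 5 arrays (adjusted p = 0.012), -0.47 ± 0.11 when only the RW sidestream and air arrays were fitted (adjusted p = 0.033), and -0.47 ± 0.14 without DIO-SC-3 and DIO-SC-7 (adjusted p = 0.035). Mainly the SE changed between the fits. All 3 reduced fits leave out DIO-SC-3 and DIO-SC-7, which are not in this comparison but enter the spread shared by all groups. These 3 fits overlap in their arrays and are not separate evidence.

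In DIO mice the Ly6d difference between sidestream smoke and air was -0.57 ± 0.26 (SE, adjusted p = 0.20, limma) with all arrays and 0.04 ± 0.13 (adjusted p = 0.88) without the 5. The difference between the diets in this response was -0.10 ± 0.37 (adjusted p = 0.96) with all arrays and 0.53 ± 0.17 (adjusted p = 0.17) without the 5, so it was not called in either set. Under sidestream smoke DIO mice were 0.14 below RW mice (95% interval -0.66 to 0.39, adjusted p = 0.98). Under mainstream smoke Ly6d lay between 8.23 and 9.46 (median 8.51) in DIO mice and between 8.46 and 9.13 (median 8.96) in RW mice. Against air this was 0.67 ± 0.26 lower with all arrays and 0.24 ± 0.13 lower without the 5 in DIO mice, and 0.46 ± 0.26 lower in RW mice, where 7 of 8 mainstream arrays lay below every air array.

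B cell markers were lower in DIO than in RW lungs in air with or without the 5 arrays, whereas Ly6d was called lower there only without DIO-SC-3 and DIO-SC-7. In air, 8 of 9 B cell markers were lower in DIO than in RW mice and 0 higher, with a median of -0.89 against -0.03 over all genes (limma) and 6.18% of all probe sets called, among them Fcer2a, the low-affinity IgE receptor (2.01-fold lower), and Cd79b and Cd79a, parts of the B cell receptor (2-fold and 1.89-fold lower). Under sidestream smoke 7 of 9 were lower than in air in RW mice, with a median of -0.55 and 2.3% of all probe sets called. In DIO mice 2 of 9, Fcer2a and Cd22, were higher (1, Fcer2a, without the 5 arrays), with 5.29% of all probe sets called and a median of 0.25, while Ly6d was at -0.57 there and at 0.04 without the 5. This response differed between DIO and RW mice for 7 of 9 B cell markers, all higher in DIO mice, Fcer2a by 1.17 and Ms4a1 (CD20) by 0.99 (log2), where Ly6d was not called and 0.535% of all probe sets were; without the 5 arrays it differed for 4 of 9. Under mainstream smoke 1 of 9 was higher than in air in DIO mice and 6 of 9 were lower in RW mice (7 without the 5 arrays), where 18.2% and 14.2% of all probe sets were called. The same number of markers was called without the 5 arrays in DIO against RW mice in air and under sidestream smoke in RW mice.

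Array by array, the mean of the 9 B cell markers lay between 7.47 and 8.12 in DIO mice in air, against 8.39 to 8.96 in RW mice in air, so these groups did not overlap. It lay between 7.87 and 8.28 in DIO mice and between 7.96 and 8.37 in RW mice under sidestream smoke, and between 7.74 and 8.23 in DIO mice and between 7.77 and 8.42 in RW mice under mainstream smoke. As a description over arrays, which share hybridization and normalization, deviations of Ly6d from its group means followed those of the B cell mean with Pearson r = 0.23 (rho = 0.44) over 48 arrays and r = 0.86 (rho = 0.86) over 43. For the T cell markers r was 0.55 (rho = 0.69) over 48 arrays and 0.73 (rho = 0.77) over 43. For the squamous markers it was 0.69 over 48 arrays and -0.11 over 43, and for the endothelial markers -0.66 over 48 arrays and 0.0034 over 43. For the thymocyte markers r was 0.47 (rho = 0.58) over 48 arrays and 0.28 (rho = 0.28) over 43. The part of B cell number in the Ly6d differences was not tested.

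**Figure D3:**
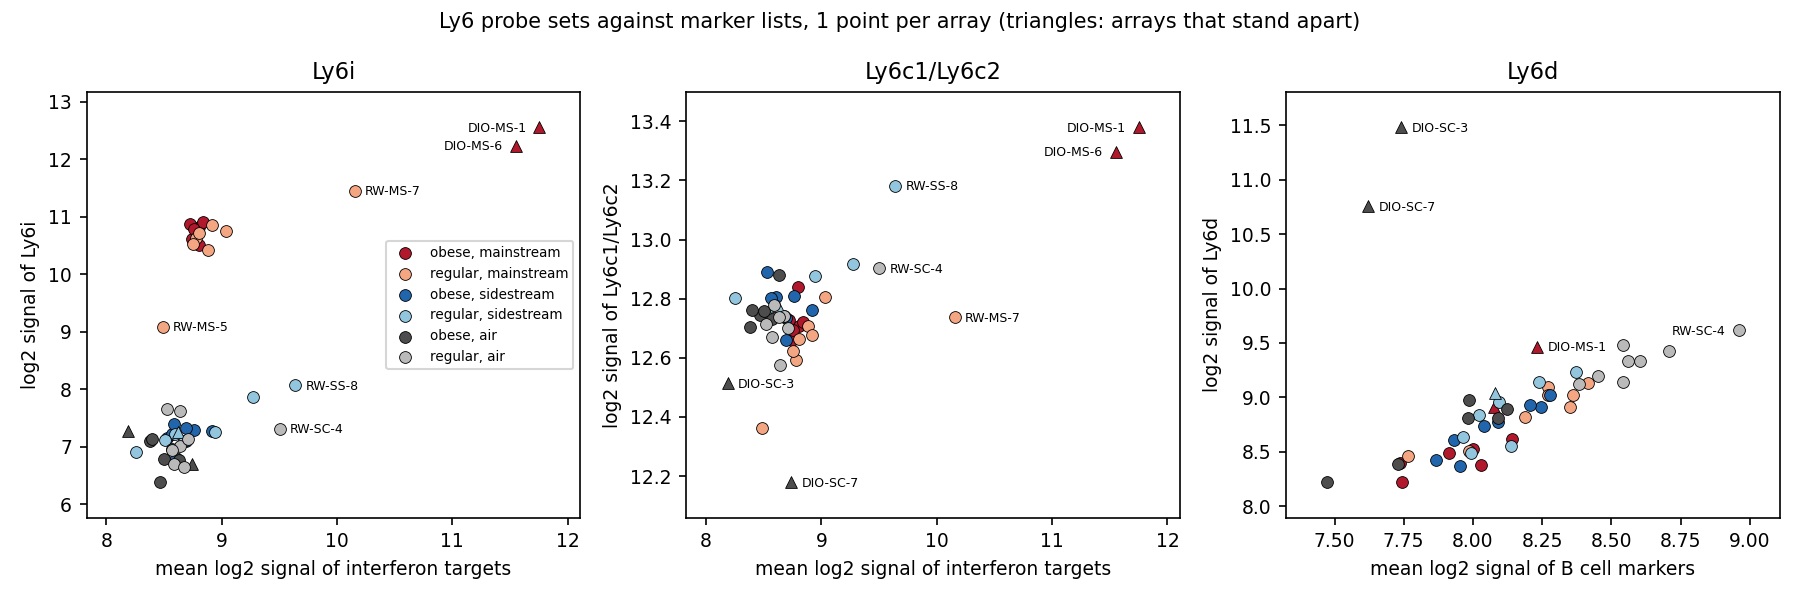
Log2 signal of Ly6i and Ly6c1/Ly6c2 against the mean log2 signal of 22 interferon targets, and of Ly6d against that of 9 B cell markers (1 point per array, triangles for the 5 arrays that stand apart). DIO-MS-1 and DIO-MS-6 were high on both axes in the interferon panels, and DIO-SC-3 (11.48) and DIO-SC-7 (10.75) lay above the band of the other arrays in the Ly6d panel.

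Ly6f was dim, at the 13th percentile of probe sets by mean signal. Its signal lay between 4.22 and 5.31 (median 4.69) in DIO mice and between 4.52 and 4.99 (median 4.63) in RW mice under mainstream smoke, and between 4.10 and 4.94 (median 4.68) in DIO mice and between 4.32 and 5.43 (median 4.83) in RW mice under sidestream smoke. In air it lay between 4.36 and 4.67 (median 4.65) in DIO mice and between 4.11 and 4.85 (median 4.58) in RW mice. All 6 ranges overlapped. Against air in RW mice Ly6f was 0.29 ± 0.12 (SE) higher under sidestream smoke, at an unadjusted p of 0.024 and an adjusted p of 0.21 (limma). In DIO mice this difference was 0.09 (95% interval -0.16 to 0.33, adjusted p = 0.74).

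Over the 4 probe sets, limma called 0 in each of the 5 comparisons tested, none of which involves mainstream smoke. Between DIO and RW mice in air 0 of 4 had an unadjusted p below 0.05, and 6.18% of all probe sets were called. Sidestream smoke against air gave 1 of 4 at an unadjusted p below 0.05 in DIO mice (Ly6d) and 1 of 4 in RW mice (Ly6f), where 5.29% and 2.3% of all probe sets were called. The difference between the diets in the sidestream response and the difference between DIO and RW mice under sidestream smoke gave 0 of 4 each at an unadjusted p below 0.05, with 0.535% and 0.937% of all probe sets called. Without the 5 arrays 1 of 4, Ly6d, was called lower in DIO than in RW mice in air, where 6.98% of all probe sets were called and 4.29% lower, and 1 of 4, again Ly6d, was called lower under sidestream smoke in RW mice, where 4.01% were called and 2.61% lower. In the other comparisons without the 5 arrays limma called 0 of 4: sidestream smoke in DIO mice (0 of 4 at an unadjusted p below 0.05, 7.49% of all probe sets called), its difference between the diets (Ly6d alone of the 4, 0.915%) and DIO against RW mice under sidestream smoke (0 of 4, 2.07%).

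The interferon pathway was followed from its ligands, receptors and transducers to its targets; against air, mainstream smoke gave calls for 18.2% of all probe sets in DIO mice and 14.2% in RW mice (14.9% and 22.8% without the 5 arrays). Of 17 ligands, receptors and transducers, 7 were higher than in air under mainstream smoke in DIO mice and 0 lower (median 0.40; 5 higher without the 5 arrays, median 0.125), and 3 were higher and 1 lower in RW mice (median 0.06, limma). Socs3, a feedback inhibitor of cytokine receptors, was 2.01-fold higher in DIO mice (log2 1.01, but 0.54 without the 5 arrays) and 1.99-fold higher in RW mice, and Ifnar2, a chain of the type I interferon receptor, 1.44-fold and 1.16-fold higher. Of 22 interferon targets, 12 were higher under mainstream smoke in DIO mice (median 0.87), but 2 of 22 without the 5 arrays (median 0.19), and 1 of 22, Cxcl10, in RW mice (median 0.11; 2 of 22 without the 5 arrays). Cxcl10, a T cell chemokine, was 9.85-fold higher in DIO and 3.93-fold higher in RW mice with all arrays. In DIO mice its log2 difference was 3.30 ± 0.60 with all arrays and 2.20 ± 0.40 without the 5 (SE), while in RW mice it was 1.97 in both sets.

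Under sidestream smoke limma called 0 of 22 interferon targets in DIO mice (0 at an unadjusted p below 0.05) and 0 of 22 in RW mice (1 at an unadjusted p below 0.05). Of the 17 ligands, receptors and transducers, 0 were called in DIO mice (2 at an unadjusted p below 0.05), and 1, the kinase Jak1, was lower in RW mice by 0.31 ± 0.06 (SE, adjusted p = 0.0023, limma). Between DIO and RW mice in air, 0 of 22 targets and 0 of 17 of the upstream genes were called (2 and 6 at an unadjusted p below 0.05, limma). In the set of 43 arrays 1 of each was lower in DIO mice, Psmb8 of the immunoproteasome among the targets and the factor Irf8 among the upstream genes. Of all probe sets, 5.29% and 2.3% were called under sidestream smoke in DIO and RW mice. Between the diets in air 6.18% were called with all arrays and 6.98% with 43.

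The arrays highest in interferon targets within their group were often, but not always, the highest in Ly6i or Ly6c1/Ly6c2. The mean signal of the 22 targets was 11.75 on DIO-MS-1 and 11.55 on DIO-MS-6, against 8.72 to 8.84 on the other 6 DIO mainstream arrays, and it was highest in its group on RW-MS-7 (10.15), RW-SS-8 (9.64) and RW-SC-4 (9.5). Ly6i was highest in its group on DIO-MS-1, RW-MS-7 and RW-SS-8, but on RW-SC-4 it was 7.31 and the third of 8. Ly6c1/Ly6c2 was highest in its group on DIO-MS-1, RW-SS-8 and RW-SC-4. In DIO mice in air the array highest in targets, DIO-SC-7 at 8.74, was the lowest in Ly6c1/Ly6c2, and under sidestream smoke DIO-SS-5 at 8.91 ranked 4 of 8 in Ly6i and 5 of 8 in Ly6c1/Ly6c2. RW-MS-5, the mainstream array lowest in Ly6i, was also the lowest RW mainstream array for Ly6c1/Ly6c2 (12.36) and for the targets (8.49).

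Over all arrays, deviations from group means of the interferon targets and of Ly6i had r = 0.76 (rho = 0.55) over 48 arrays and r = 0.62 (rho = 0.39) over 43. For Ly6c1/Ly6c2 these were r = 0.74 (rho = 0.68) and r = 0.64 (rho = 0.50). Markers of monocytes and macrophages and of neutrophils also followed both probe sets over 48 arrays, and less closely over 43, as given below. The 6 DIO mainstream arrays with targets at 8.72 to 8.84 had Ly6i at 10.52 to 10.91, and RW-SS-8 with targets at 9.64 had Ly6i at 8.06. These arrays come from different exposure groups, so their comparison includes the mainstream response that chose the family, and nothing is read from it. The part of interferon in the Ly6i signal was not tested.

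Monocyte and macrophage markers were mostly higher in the mainstream groups, as was Ly6i. Of 12 monocyte and macrophage markers, 12 were higher than in air under mainstream smoke in DIO mice (9 without the 5 arrays) and 8 in RW mice (10 without them), with medians of 1.19 and 0.51 (limma), where 18.2% and 14.2% of all probe sets were called. The median in DIO mice was 0.78 without the 5 arrays. Cd68, a lysosomal protein of macrophages, was 3.11-fold higher in DIO and 2.56-fold higher in RW mice, and Cd14, the co-receptor for LPS, 3.61-fold and 2.68-fold higher. Without the 5 arrays the log2 differences in DIO and RW mice were 1.485 and 1.359 for Cd68 and 1.453 and 1.422 for Cd14. The mean of the 12 markers lay between 9.91 and 11.10 in DIO mice and between 9.79 and 10.56 in RW mice under mainstream smoke, against 8.88 to 9.30 in DIO mice and 9.30 to 9.59 in RW mice in air. This mean was highest in its group on DIO-MS-1 (11.10) and RW-MS-7 (10.56), which were also highest in Ly6i. RW-MS-5, lowest in Ly6i, had a mean of 10.19, well inside its group. As a description, deviations from group means of these markers and of Ly6i had r = 0.61 (rho = 0.455) over 48 arrays and r = 0.29 (rho = 0.28) over 43. For Ly6c1/Ly6c2 these were r = 0.65 (rho = 0.57) and r = 0.25 (rho = 0.33).

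Most neutrophil markers were not called. Of 12, 3 were higher than in air under mainstream smoke in DIO mice (2 without the 5 arrays) and 2 in RW mice, with 0 lower in either diet. Of all probe sets, 18.2% and 14.2% were called in either direction. Medians were 0.105 in DIO mice (-0.04 without the 5 arrays) and 0.07 in RW mice. Among those called, Mmp8, a collagenase of neutrophils, was 3.46-fold and 2.32-fold higher and the lectin Clec4d 3.18-fold and 2.39-fold higher, in DIO and RW mice. Without the 5 arrays the log2 differences in DIO and RW mice were 1.33 and 1.22 for Mmp8 and 1.09 and 1.26 for Clec4d. The mean of the 12 neutrophil markers lay between 7.68 and 8.54 in DIO mice and between 7.60 and 7.97 in RW mice under mainstream smoke. It overlapped with air, at 7.23 to 7.87 in DIO mice and 7.32 to 8.10 in RW mice. Deviations from group means of the neutrophil markers and of Ly6i had r = 0.42 (rho = 0.42) over 48 arrays and r = 0.18 (rho = 0.22) over 43. For Ly6c1/Ly6c2 these were r = 0.49 (rho = 0.40) and r = -0.03 (rho = -0.04). Of 14 lung endothelial markers, 4 were lower than in air under mainstream smoke in DIO mice and 5 in RW mice (8 in each diet without the 5 arrays), Ramp2, a co-receptor of adrenomedullin, by 0.41 ± 0.11 and 0.53 ± 0.11 (SE). Their mean lay between 10.97 and 11.55 in DIO mice and between 11.21 and 11.51 in RW mice under mainstream smoke, against 10.78 to 11.72 in DIO mice and 11.45 to 11.73 in RW mice in air. The part of these cell types in the Ly6 signals was not tested.

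Under sidestream smoke, where no Ly6 probe set was called with all arrays, 2 of 12 monocyte and macrophage markers, Ccr2 and Cd14, were higher than in air in DIO mice, by 1.42-fold and 1.40-fold, and 0 of 12 were called in RW mice (1 at an unadjusted p below 0.05, limma). Under sidestream smoke 5.29% of all probe sets were called in DIO mice and 2.3% in RW mice. In air, 3 of 12 were lower in DIO than in RW mice, led by the monocyte chemokine receptor Ccr2 (1.5-fold lower), with 6.18% of all probe sets called. Without the 5 arrays 3 of 12 were again lower, Ccr2 among them, with 6.98% called, but Csf1r and Cd68 were not called (adjusted p = 0.14 for each, limma). Limma called 0 of 12 neutrophil markers under sidestream smoke in DIO mice (0 at an unadjusted p below 0.05) and 0 of 12 in RW mice (1 at an unadjusted p below 0.05). Of the 14 endothelial markers, 1, Sox17, was higher in DIO mice under sidestream smoke, and 0 were called in RW mice (3 at an unadjusted p below 0.05, limma). Over the 43 arrays 1 was higher and 5 were lower in DIO mice under sidestream smoke, where 7.49% of all probe sets were called. Their median was -0.11, against 0.05 with all arrays.

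Genes whose signal followed a Ly6 probe set most closely were picked as the 3 with the highest Pearson r. Over the 48 arrays these were, for Ly6i, the neutrophil chemokine Cxcl1 (r = 0.975), the nuclear regulator Nfkbiz (r = 0.974) and the oxidase organizer Noxo1 (r = 0.974), values that include the contrast that chose the family. For deviations from group means they were the monocyte chemokine Ccl2 (r = 0.85 over 48 arrays and 0.77 over 43) and the interferon-induced Oas1b (0.81 and 0.68) and Mx2 (0.81 and 0.65). For Ly6c1/Ly6c2 the nearest were Ido1 (r = 0.797 over 48 arrays and 0.692 over 43), Ccrl2 (0.788 and 0.287) and Gbp2 (0.787 and 0.611). By deviations they were Ifitm3 (0.87 and 0.73), Parp12 (0.84 and 0.55) and Samhd1 (0.84 and 0.53).

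For Ly6d the nearest genes by deviations were Ada, Trim29 and Slc46a2, with r of 0.86, 0.85 and 0.84 over 48 arrays, but 0.17, 0.15 and 0.31 over the 43. Over plain values the nearest to Ly6d were Capn3 (r = 0.808 over 48 arrays and 0.372 over 43), Ada (0.796 and 0.199) and Endou (0.785 and 0.68). For Ly6f they were H2-Bl (0.68 and 0.64), Batf2 (0.64 and 0.51) and Csf3 (0.63 and 0.47), which were also the nearest over plain values. These are descriptions over arrays that share their normalization.

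Of 39 further genes of the Ly6/uPAR family, 16 had a probe set of their own. Under mainstream smoke against air, 2 of 16 were lower in DIO mice and 0 higher, and 1 was higher and 0 lower in RW mice (limma), with medians of -0.08 in DIO mice and -0.07 in RW mice, against -0.02 and -0.03 over all genes. These counts are below the 18.2% and 14.2% of all probe sets called, so nothing is read from them about the family. Ly6g6c, of the major histocompatibility complex, was 1.95-fold lower in DIO mice (adjusted p = 0.031, limma), and Lynx1, which binds nicotinic acetylcholine receptors, was 1.26-fold lower (adjusted p = 0.00022). Plaur, the urokinase receptor, was 1.28-fold higher in RW mice (adjusted p = 0.04), and its difference in DIO mice was 0.28 ± 0.12 (SE, adjusted p = 0.10) with all arrays and -0.03 ± 0.08 (adjusted p = 0.87) without the 5. Without the 5 arrays Ly6g6c was lower in both diets, by 0.39 ± 0.10 in DIO mice and 0.47 ± 0.08 in RW mice (SE, adjusted p = 0.0031 and 3.5e-05).

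Sidestream smoke gave 1 of 16 higher and 0 lower in DIO mice, Ly6g6d, also of the major histocompatibility complex, by 1.29-fold (adjusted p = 0.029, limma), and 0 of 16 called in RW mice (0 at an unadjusted p below 0.05). In air Ly6g6d was the 1 of 16 that was lower in DIO than in RW mice, 1.30-fold (adjusted p = 0.021). As 1 of 16 these stand beside 5.29% and 6.18% of all probe sets called, and are near that background. Both Ly6g6d calls rest on the same DIO air arrays, and with the 43 remaining arrays these differences were 0.16 (adjusted p = 0.18) and -0.18 (adjusted p = 0.16). With all arrays Plaur was not called, at -0.33 (adjusted p = 0.10) under sidestream smoke in DIO mice and 0.15 (adjusted p = 0.54) in DIO against RW mice in air. In the 43 arrays it was called, 0.51 lower under sidestream smoke than in air in DIO mice (adjusted p = 1.6e-05) and 0.33 higher in DIO than in RW mice in air (adjusted p = 0.0042). Lypd3, of squamous epithelium, was not called in air, at 0.82 ± 0.45 (SE) in DIO against RW mice with all arrays and -0.01 ± 0.08 without the 5.

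**Figure D4:**
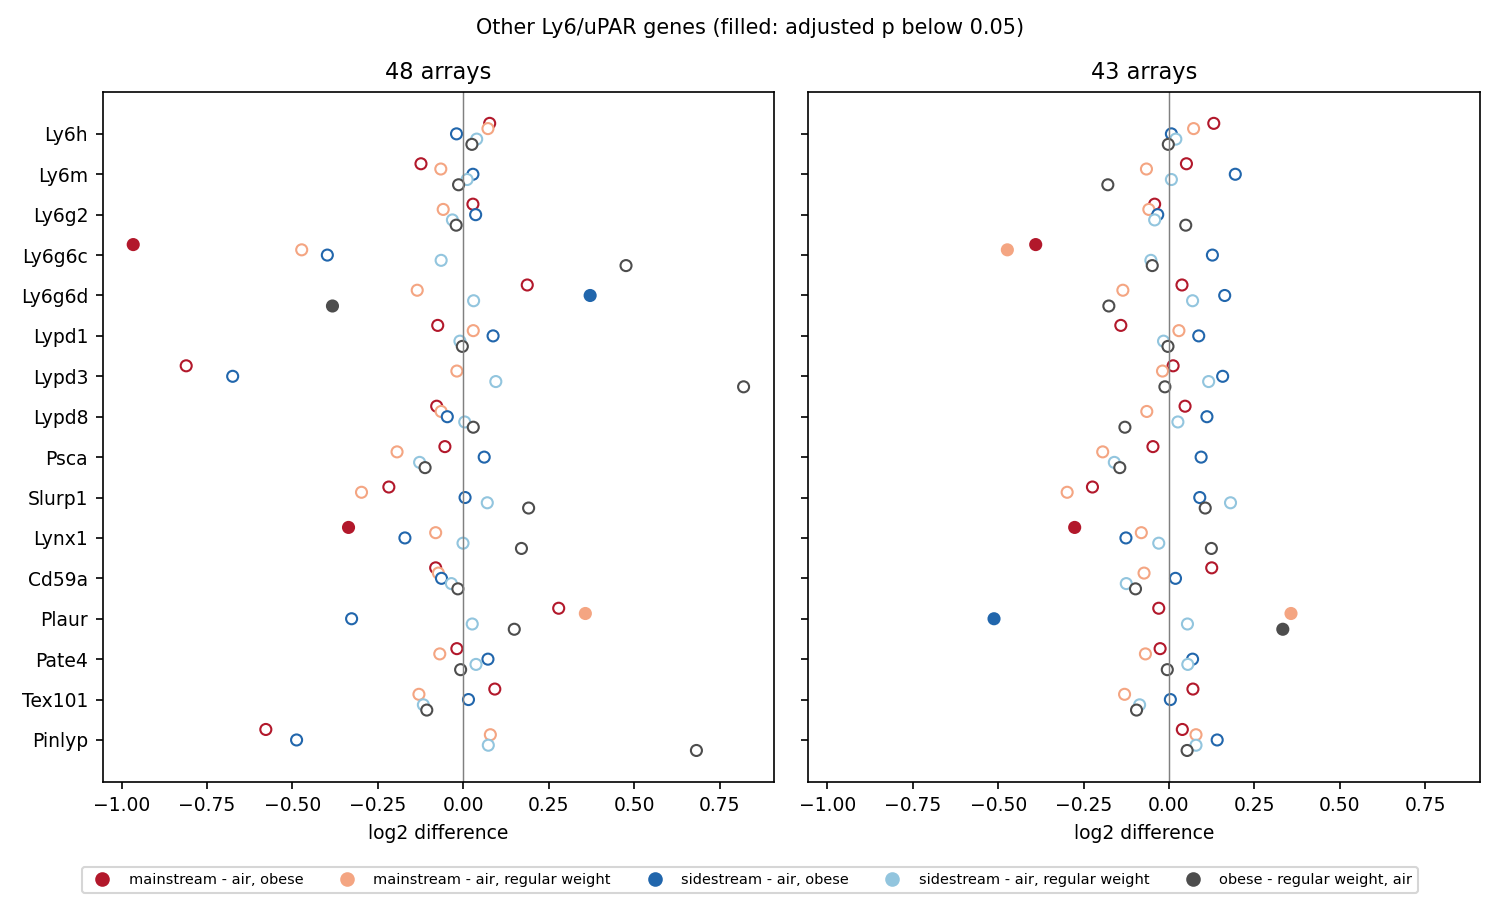
Log2 difference (x axis) of 16 other Ly6/uPAR genes (rows) in 5 comparisons, for all 48 arrays (left) and 43 arrays (right), with filled points for an adjusted p below 0.05. Of these 16, 5 points were filled with 48 arrays, and the wide spread of Ly6g6c, Lypd3 and Pinlyp with 48 arrays was narrower with 43.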

How the data were processed

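Lung RNA of 48 mice in 6 groups of 8 was measured on 1 Affymetrix array per animal. The authors deposited log2 signals per probe set made with RMA, per the submitters' processing notes; RMA is a method that corrects background, quantile-normalizes between arrays and summarizes probes, so a shift shared by all probe sets cannot be seen. The version is not given in the sources used here. A microarray has no read depth, and the number of arrays limits the precision. Of 22690 probe sets, 64 controls were left out and 22626 were tested. The annotation gave 1 symbol to 20393 probe sets, several to 691 and none to 1606.

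All 48 arrays entered 1 linear model with 6 group means in limma 3.58.1 (R 4.3.3 with the package data.table, version 1.17.8), with moderated statistics and Benjamini-Hochberg adjustment over all probe sets. Adjusted p-values below 0.05 were calls. Lists used 1 probe set per gene, the one with the highest mean. The text names every Ly6 probe set, at most 4 called genes of each list with the largest differences, and for each Ly6 probe set the 3 genes with the highest Pearson r, by values and by deviations from group means. Ly6 genes and lists were chosen with earlier results of these data known, as were the 5 arrays left out. Leaving out DIO-SC-3, DIO-SC-7, both, RW-MS-5, or DIO-MS-1 with DIO-MS-6 was chosen after seeing the data. The code was tested on simulated data.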

Additional observations from a re-analysis of the deposited data

Results flagged for a closer look

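Within the 24 combinations of 4 Ly6 probe sets and 6 groups, 3 held an array whose gap to its nearest neighbour was large against the range of its group. Chance flags about 1 in 20 such groups. For Ly6i, RW-MS-5 at 9.08 lay below the next array at 10.41, a gap of 0.563 of the range of RW mice under mainstream smoke. For the Ly6c1/Ly6c2 probe set, RW-SS-8 at 13.18 lay above the next array at 12.92, a gap of 0.595 of the range of RW mice under sidestream smoke. For Ly6f, DIO-SS-3 at 4.10 lay below the next array at 4.62, a gap of 0.622 of the range of DIO mice under sidestream smoke. Ly6d was not among them, although DIO-SC-3 and DIO-SC-7 were both high, because the ratio looks for a single array.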

How the results depend on the processing

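The alternatives were centring each array on its median, only the groups compared, trended and robust moderation, no probe sets of the lowest signals, 1 probe set per gene, array weights, the replicate block, leaving out the 5 arrays that stand apart and, chosen after seeing the data, leaving out single arrays or pairs of them. The number of Ly6 probe sets called was 0 in each comparison; it became 1, Ly6d, between DIO and RW mice in air without the 5 arrays, and 1, Ly6d, under sidestream smoke in RW mice without the 5 arrays and with only the RW sidestream and air arrays. Leaving out DIO-SC-3 and DIO-SC-7 together also called Ly6d in both (adjusted p = 0.0047 in air and 0.035 under sidestream smoke, limma). Directions turned for 2 probe sets in the tested comparisons. Ly6c1/Ly6c2 in DIO against RW mice in air was 0.035 without the 5 arrays and 0.009 with array weights, against -0.07. Ly6d under sidestream smoke in DIO mice was 0.039 without the 5 arrays and without DIO-SC-3 and DIO-SC-7, against -0.57. Its difference between the diets, -0.10, became 0.533 without the 5 arrays, 0.335 with array weights, 0.212 without DIO-SC-3, 0.109 without DIO-SC-7 and 0.508 without both. Both Ly6d turns were seen when only DIO-SC-3 and DIO-SC-7 were left out. Why these arrays differ from their group, and the cause of the Ly6c1/Ly6c2 turn, were not tested. The other Ly6 values of the 5 tested comparisons, and Ly6i under mainstream smoke against air, kept their direction. The low-signal filter left out Ly6f, and 1 probe set per gene left out Ly6c1/Ly6c2. For Ly6i, mainstream smoke stayed 3.87 to 4.28 above air in DIO mice and 3.38 to 3.64 in RW mice. Counts over all probe sets moved more. Without the 5 arrays they were 907, against 521 with all, for sidestream smoke in RW mice, 207 against 121 for its difference between the diets, 468 against 212 for DIO and RW mice under sidestream smoke, and 5149 against 3209 for mainstream smoke in RW mice. With only the groups compared they were 358 against 1399 between DIO and RW mice in air, 528 against 1197 for sidestream smoke in DIO mice, 574 against 212 for the diets under sidestream smoke and 1758 against 4108 for mainstream smoke in DIO mice. With array weights they were 945 for sidestream smoke in RW mice, 1856 for it in DIO mice, 190 for its difference between the diets and 1395 for the diets under sidestream smoke. With 1 probe set per gene, where fewer are tested, they were 269 for sidestream smoke in RW mice, 121 for the diets under it, 2658 for mainstream smoke in DIO mice and 1819 for it in RW mice.

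The groups share animal numbers. The correlation of deviations between the 120 pairs of arrays with the same number had a median of 0.021 (-0.364 to 0.487), against -0.01 for other pairs. Of 48 arrays, 7 lay closest to their own number. These correlations showed no clear pairing by number, but they cannot show that the mice were unmatched. With the replicate block 0 of 4 were called in each of the 5 comparisons, and Ly6i was 4.28 and 3.43 above air in DIO and RW mice.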
